A study of Mus musculus with 217 samples.

Results

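The interneuron markers described here were 10 genes, chosen by symbol because each is used to mark a class of striatal or cortical interneuron: *Sst*, *Npy*, *Nos1*, *Pvalb*, *Chat*, *Slc5a7*, *Slc18a3*, *Th*, *Calb2* and *Cck*. All 10 were found among the 54532 genes of the count tables, and all 10 had reads enough to be tested in each tissue at each age. RNA was sequenced from striatum and cortex of LacQ140 mice, a C57BL/6 (C57BL/6J in the study's methods) knock-in model of Huntington's disease in which mutant huntingtin (m*Htt*) carries *Lac* operators. The repressor lowers m*Htt* in part, and isopropyl β-D-1-thiogalactopyranoside (IPTG) relieves it, so mice without IPTG still made some m*Htt*. The 217 libraries came from 110 mice aged 6 or 12 months, and 107 of the mice gave both tissues. The question asked was whether transcripts of interneurons moved with m*Htt*, and with its lowering, as transcripts of the spiny projection neurons did.

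All mice, controls included, carried the beta-actin-LacIR transgene, so the repressor was driven by a promoter active in every cell type. The WT mice were Hdh(LacO-+/+):beta-actin-LacIR tg and were either left without IPTG (WT) or given it from E5 for life (WT + IPTG). The LacQ140 mice were Hdh(LacO-140Q/+):beta-actin-LacIR tg, that is, heterozygous for the expanded allele. They received IPTG from E5 for life (LacQ140, m*Htt* expressed), never (LacQ140_A, m*Htt* lowered from conception), or until 2 or 8 months of age (LacQ140_2M and LacQ140_8M). LacQ140_8M was present at 12 months only. Each group held 10 mice, 5 of each sex, except that WT, LacQ140 and LacQ140_8M had 9 striatal libraries each at 12 months. Each age was deposited as its own table, so age and anything else that differed between these tables cannot be told apart.

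Most striatal neurons are GABAergic spiny projection neurons, and a small remainder are interneurons that stay within the striatum. Interneurons that make somatostatin, neuropeptide Y and neuronal nitric oxide synthase form a low-threshold spiking class, parvalbumin marks fast-spiking cells, and large cholinergic cells supply most striatal acetylcholine. In Huntington's disease the spiny neurons are the cells best known to be lost, and the somatostatin and cholinergic interneurons are classically described as resistant.

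*Sst* and *Th* are textbook targets of the cAMP response element, whose full form is TGACGTCA and whose shorter core is CGTCA, read on either strand. The promoters are shown because the members that share this element belong to different interneuron classes. RefSeq promoter windows (GRCm38.p6) matched 9 of the 10 members; *Calb2* had no entry. The 100 bases before the RefSeq start are printed on the gene's own strand, 5′ to 3′, with the element in capitals, for *Sst* at chr16:23890845-23890944 (minus strand), *Th* at chr7:142899996-142900095 (minus strand), *Cck* at chr9:121495695-121495794 (minus strand) and *Slc18a3* at chr14:32464851-32464950 (minus strand).
Sst: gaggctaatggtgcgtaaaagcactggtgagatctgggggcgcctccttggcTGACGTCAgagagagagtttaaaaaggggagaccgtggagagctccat
Th: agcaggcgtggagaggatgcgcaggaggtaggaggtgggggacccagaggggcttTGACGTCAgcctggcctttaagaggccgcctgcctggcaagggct
Cck: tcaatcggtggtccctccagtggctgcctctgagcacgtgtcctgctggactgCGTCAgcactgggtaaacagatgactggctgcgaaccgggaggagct
Slc18a3: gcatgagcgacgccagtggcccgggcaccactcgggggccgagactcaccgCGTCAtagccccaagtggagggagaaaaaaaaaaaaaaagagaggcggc
The full element was found in *Sst* and *Th*, beginning 48 and 45 bases before the start, and in 1.55% of all 32851 windows when the 250 bases before the start were searched on both strands. The shorter core, which the full element contains, was found in *Cck*, *Slc18a3*, *Nos1* and *Chat* and in 17.8% of all windows. No copy of either was found in these windows for *Npy*, *Pvalb* or *Slc5a7*. *Sst* and *Th*, which share the full element, mark different classes, and their striatal levels differed widely.

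The libraries held 33292014 to 68038785 estimated reads, and no replicate pair looked like the same library deposited again. *Htt* was counted over both alleles, and its direction followed the labels in all lowered groups but 1. In striatum at 12 months its median was 149 CPM (counts normalised to library size, scaled between libraries by the trimmed mean of M values, TMM) in WT + IPTG, 113 CPM in LacQ140 and 90.9 CPM in LacQ140_A. LacQ140_A was below WT in all 4 tissue and age sets, by log2 differences of -0.40 and -0.52 in striatum and -0.60 and -0.72 in cortex at 6 and 12 months. LacQ140_8M in striatum was the exception, with a median of 112 CPM and a log2 difference of 0.00 from LacQ140 (adjusted p = 1), against -0.41 in cortex (adjusted p = 1). The tissue labels fitted their markers: the 10 spiny neuron markers summed to 4817 CPM or more in striatal libraries and to 676 CPM or less in cortical ones. A second set of markers set some striatal libraries apart. In 11 of 50 striatal libraries at 6 months and 15 of 57 at 12 months, the summed markers of cortical projection neurons or of thalamus were over 3 times the median of that age. At 6 months 6 of these 11 were WT + IPTG and 2 were LacQ140. Markers called over both sexes in striatum are given with and without them, as are the other values stated so.

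In WT mice without IPTG, *Sst* had the highest level per kilobase of transcript in striatum at each age, with a median of 306 CPM per kb at 6 months and 293 at 12 months, above every mouse's value for the next gene. *Npy* and *Pvalb* followed with medians of 111 and 70.2 CPM per kb at 12 months and overlapping ranges. *Chat*, which encodes choline acetyltransferase, stood at 14.7 CPM per kb at 6 months, and *Cck*, *Slc5a7*, *Nos1*, *Slc18a3*, *Th* and *Calb2* stood between 8.57 and 3.52 CPM per kb, each overlapping its neighbour in that order. In cortex *Sst* and *Cck* led, with 602 and 543 CPM per kb at 12 months, and the ranges overlapped. The 3 cholinergic genes were the lowest cortical members. Their medians were 0.475 (*Chat*), 0.339 (*Slc5a7*) and 0.174 (*Slc18a3*) CPM per kb at 6 months. The median library held 11 reads of *Chat* in cortex at 12 months, against 1435 in striatum.

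**Figure D1:**
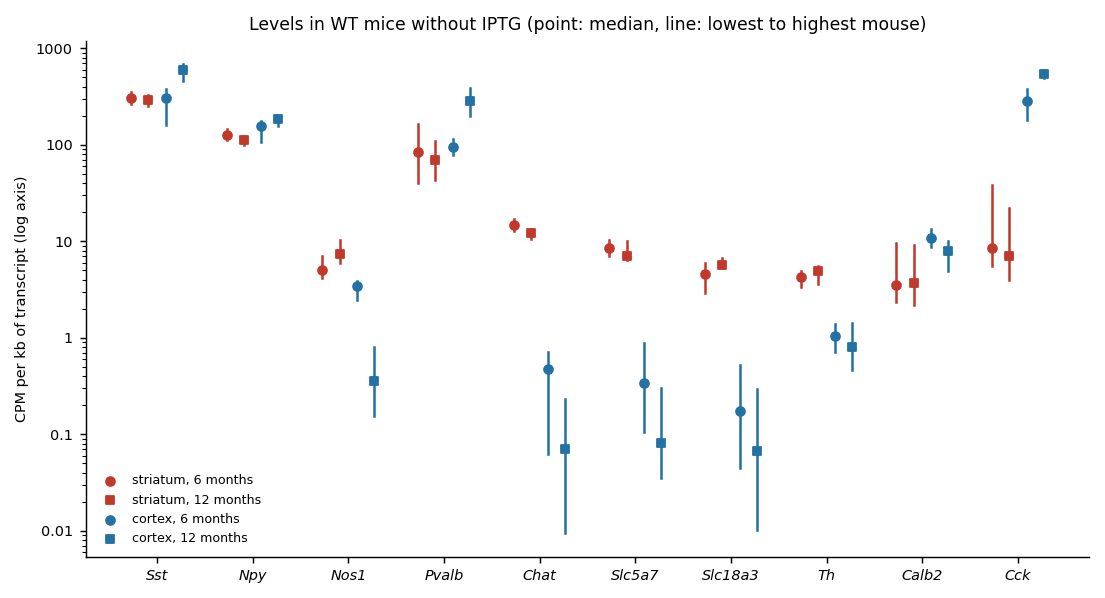
Levels of the 10 interneuron markers in WT mice without IPTG, as CPM per kilobase of the longest transcript on a log axis, in striatum (red) and cortex (blue) at 6 (circles) and 12 months (squares); points are medians and lines run from the lowest to the highest mouse (n = 9 or 10). *Sst* was the highest member in all 4 sets, while *Chat*, *Slc5a7* and *Slc18a3* were below 1 CPM per kb in cortex.

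The effect of m*Htt* was measured as LacQ140 against WT + IPTG, so that both groups had received IPTG for life. A call needed a ratio between the groups of at least 1.2-fold, up or down, together with an edgeR quasi-likelihood p, adjusted by Benjamini-Hochberg over all genes tested, below 0.05. In striatum 2 of the 10 markers were called at 6 months, *Pvalb* and *Cck*, both lower, where 7.93% of all genes were called and 3.96% were called lower. At 12 months 1 of 10 was called, *Nos1*, lower, where 9.44% of all genes were called and 4.86% were called lower. DESeq2 kept the call of *Nos1* but neither of those at 6 months. In cortex no marker was called at either age, where 0.881% and 0.0899% of all genes were called. At an unadjusted p under 0.05 *Pvalb* in cortex at 12 months was the only marker that passed in either cortical set, and DESeq2 called none there.

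As a set, the spiny neuron markers moved further in the same libraries. Their list holds genes that the study itself showed as dysregulated in these data, so their fall was known beforehand. Of 10 such markers, 9 fell in striatum at each age, with a median log2 change of -0.42 at 6 months and -0.84 at 12 months. The median over the 10 interneuron markers was -0.02 and -0.19, and over all genes tested it was 0.00 at each age. At 12 months *Scn4b*, a sodium channel subunit of spiny neurons, fell from a median of 1752 to 613 CPM, and *Penk*, the enkephalin precursor, fell from 1865 to 734 CPM. At 6 months the largest log2 falls among spiny markers were -0.72 (*Penk*) and -0.69 (*Scn4b*). With all libraries kept, the interneuron markers *Cck* (-0.90) and *Pvalb* (-0.66) fell about as far at that age. The mice did not overlap between WT + IPTG and LacQ140 for 9 of the 10 spiny markers at 12 months and 4 of 10 at 6 months, but overlapped for every interneuron marker in all 4 sets. Among all genes, 2.07% did not overlap in striatum at 12 months and 1.15% at 6 months, and in cortex 0.117% and 0.00870% did not at 6 and 12 months. At these shares overlap is usual for any 10 genes, so it does not set the interneuron markers apart. In bulk tissue, fewer cells of a type and less RNA per cell cannot be told apart.

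**Figure D2:**
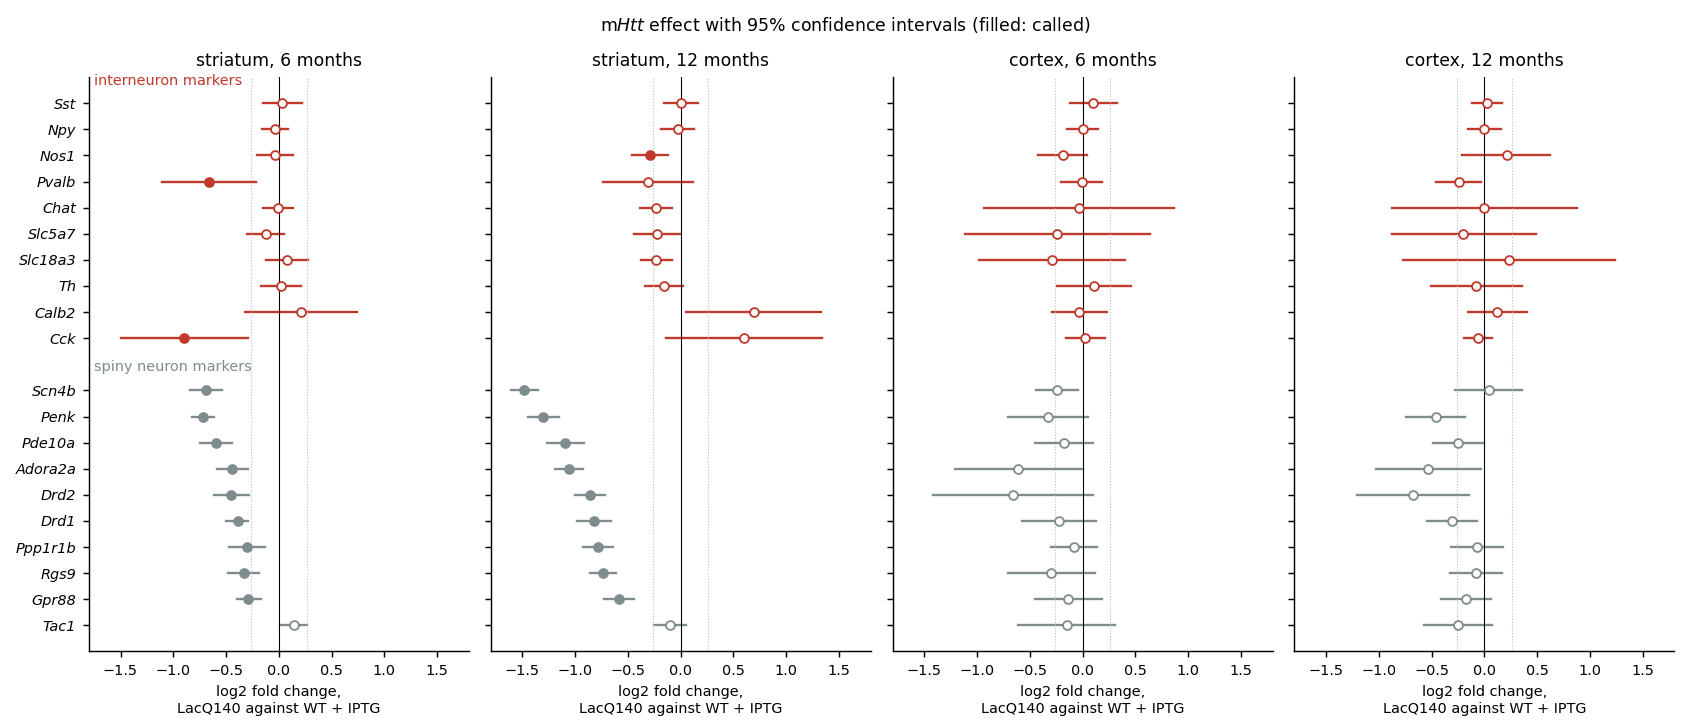
Log2 fold change of LacQ140 against WT + IPTG (points) with 95% confidence intervals (lines) for the 10 interneuron markers (red) and 10 spiny neuron markers (gray), by tissue and age; filled points were called and dotted lines mark a 1.2-fold change. At 12 months in striatum, the intervals of *Sst* and *Npy* lay within 20% of no change, while 9 spiny markers ran from -0.58 to -1.48.

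*Sst* and *Npy*, the neuropeptides of the low-threshold spiking interneurons, stood at nearly the same level with and without m*Htt*. At 12 months *Sst* ranged from 184 to 274 CPM in striatum of WT + IPTG mice (median 197) and from 152.4 to 253.4 CPM in LacQ140 (median 202). The ranges overlapped over most of their width, with 3 of 9 LacQ140 mice below the lowest WT + IPTG mouse. The log2 difference was 0.00 (SE 0.0796), with a 95% confidence interval of -10.5% to 11.5%. *Npy* ranged from 48.8 to 73.7 CPM (median 58.3) in WT + IPTG and from 45.3 to 67.2 CPM (median 58.7) in LacQ140. Its interval ran from -12.6% to 9.61%, so changes of 20% or more in either direction lay outside the interval of each peptide. At 6 months the log2 differences were 0.03 for *Sst* (interval -10.1% to 16.2%) and -0.04 for *Npy* (interval -0.16 to 0.09 on the log2 scale). The intervals at 6 months also lay within 20% of no change.

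*Nos1*, the neuronal nitric oxide synthase made by the same interneuron class and, more weakly, by other neurons, was the member called at 12 months. In striatum it ranged from 65 to 99.4 CPM in WT + IPTG (median 89.1) and from 59.6 to 94 CPM in LacQ140 (median 68.8). Of 9 LacQ140 mice, 8 were below the WT + IPTG median and 3 were below its lowest mouse. *Nos1* fell by 0.29 on the log2 scale (SE 0.0862, adjusted p = 0.014), a decrease with a confidence interval from -27.3% to -7.71%. At 6 months the medians were 54.6 and 55.1 CPM and the log2 difference was -0.04 (adjusted p = 0.88). The call at 12 months sat close to the 1.2-fold bound. With WT and WT + IPTG pooled as the control the difference was -0.21 (adjusted p = 0.063), and with the marker sums of neighbouring tissue as covariates it was -0.25 (adjusted p = 0.076). Without the libraries high in cortical or thalamic markers it was -0.30 (adjusted p = 0.0098). *Nos1* overlaps *Gm37028* on its own strand and *Gm26995* on the other, and how the counting treated strand is not given in the sources used here.

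None of the 3 cholinergic genes was called at 12 months, and all 3 had lower medians in LacQ140. *Chat* ranged from 33.6 to 44.4 CPM in WT + IPTG (median 40) and from 30.2 to 36.1 CPM in LacQ140 (median 34.1), and all 9 LacQ140 mice were below the WT + IPTG median. *Slc18a3*, the vesicular acetylcholine transporter, ranged from 13.5 to 19.6 CPM (median 15.1) and from 11.1 to 15.5 CPM (median 13), with 6 of 9 LacQ140 mice below every WT + IPTG mouse. The ranges still overlapped for both genes. *Slc5a7*, the choline transporter that returns choline to the terminal, had medians of 43.1 and 35 CPM. The log2 differences were -0.23 for *Chat* (adjusted p = 0.029), -0.23 for *Slc18a3* (adjusted p = 0.027) and -0.22 for *Slc5a7* (adjusted p = 0.23). *Chat* and *Slc18a3* thus passed the adjusted p alone, as did 14.0% of all genes, but not the fold change bound, and their differences were again -0.23 (adjusted p = 0.01 and 0.025) without the libraries high in cortical or thalamic markers. With the marker sums as covariates *Chat* no longer passed (-0.19, adjusted p = 0.13) and *Slc18a3* did (-0.25, adjusted p = 0.022). At 6 months the differences were -0.01, 0.08 and -0.12, none called. *Slc18a3* lies within *Chat* on the same strand, so their reads are not wholly independent.

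The 12-month controls themselves differed for *Chat* by nearly as much. The WT median was 35.2 CPM and the WT + IPTG median 40 CPM, a log2 difference of 0.20 that was not called (adjusted p = 0.23). Against WT and WT + IPTG pooled, the m*Htt* effect on *Chat* was -0.14 (adjusted p = 0.22) and on *Slc18a3* it was -0.17 (adjusted p = 0.079).

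**Figure D3:**
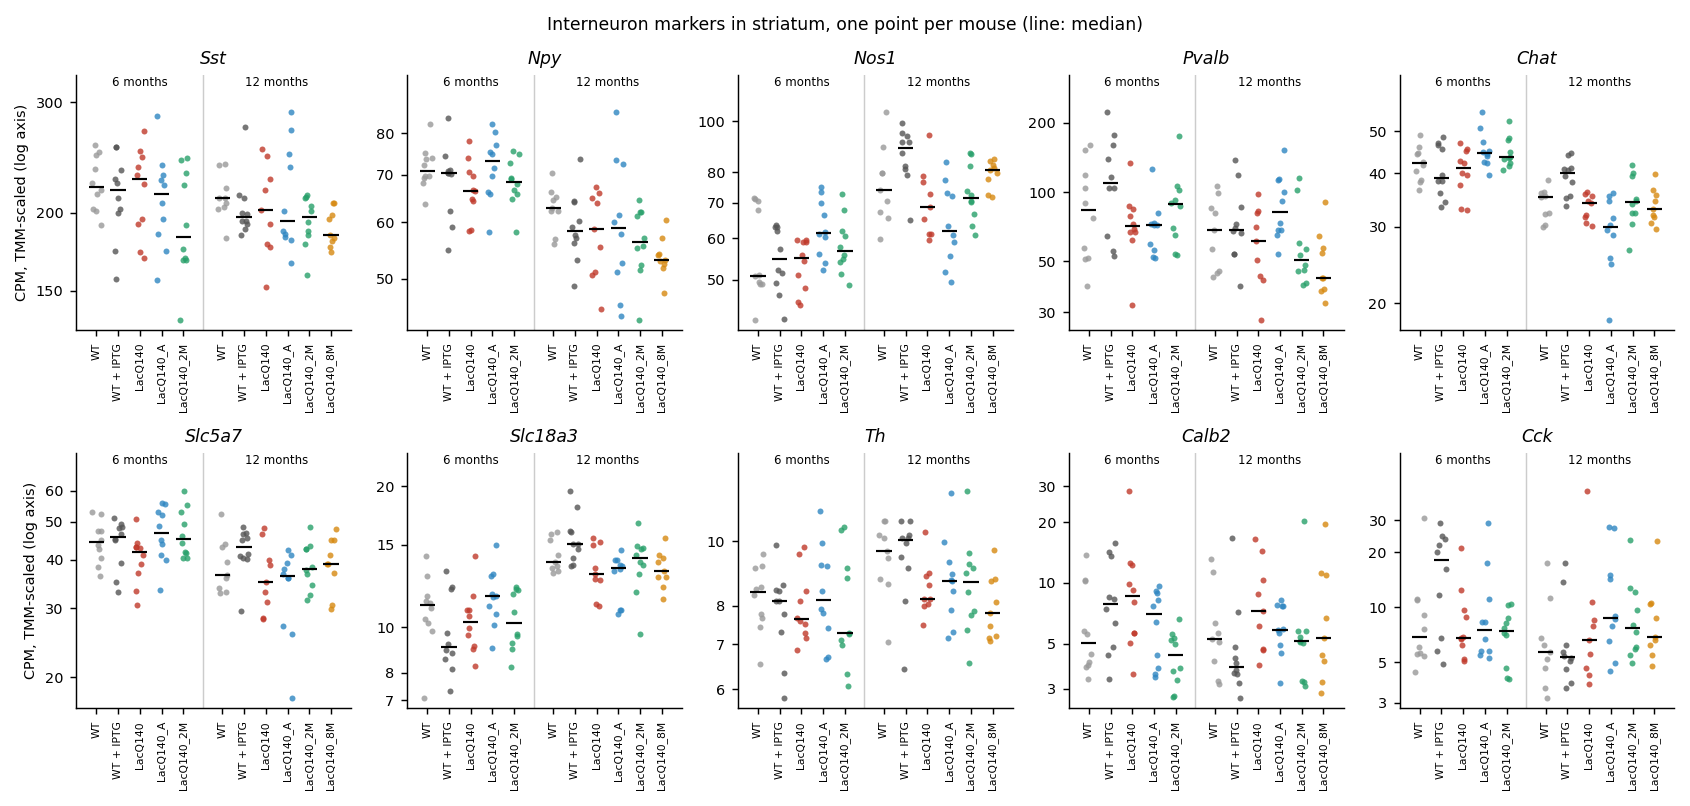
TMM-scaled CPM of the 10 interneuron markers in striatum, 1 point per mouse on a log axis, by group at 6 months (left of each panel) and 12 months (right), with the median as a black line. *Sst* and *Npy* overlapped across all groups, *Nos1* and *Chat* had lower medians in LacQ140 than in WT + IPTG at 12 months, and *Calb2* and *Cck* had single mice far above their groups.

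*Pvalb*, the calcium-binding protein of fast-spiking interneurons, was lower in LacQ140 at 6 months but with wide spread. It ranged from 52.75 to 222.2 CPM in WT + IPTG (median 110) and from 32.4 to 134 CPM in LacQ140 (median 70.9). The ranges overlapped, with 9 of 10 LacQ140 mice below the WT + IPTG median. *Pvalb* fell by 0.66 on the log2 scale (SE 0.223, adjusted p = 0.039). WT mice without IPTG had a median of 83.2 CPM, between these groups. Without the libraries high in cortical or thalamic markers the difference was -0.04 (adjusted p = 1), with 4 WT + IPTG and 8 LacQ140 mice left. The call was also lost with DESeq2 (-0.67, adjusted p = 0.07) and in 10 of 20 fits that each left out 1 library. At 12 months the medians were 68.7 and 61.3 CPM and the log2 difference was -0.31 (adjusted p = 0.45), and -0.17 (adjusted p = 0.68) without those libraries.

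*Cck*, a neuropeptide of some interneurons that cortical projection neurons also make, was the other marker called at 6 months. It ranged from 4.88 to 29.1 CPM in WT + IPTG (median 18.2) and from 5.11 to 21.2 CPM in LacQ140 (median 6.83). Most WT + IPTG mice were high, while WT without IPTG had a median of 6.85 CPM, as low as LacQ140. *Cck* fell by 0.90 on the log2 scale (SE 0.304, adjusted p = 0.041) against WT + IPTG, and the difference was -0.07 (adjusted p = 0.99) without the libraries high in cortical or thalamic markers. The call was also lost with DESeq2 (-0.89, adjusted p = 0.07) and in 12 of 20 fits that each left out 1 library. At 12 months the difference was 0.60 in the other direction and was not called (adjusted p = 0.36), and 1 LacQ140 mouse, M2, held 43.6 CPM against 10.7 CPM in the next. Without M2 alone the *Cck* difference was -0.12 (adjusted p = 0.95), and without all libraries high in these markers, M2 among them, it was 0.39 (adjusted p = 0.17).

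The markers of tissue around the striatum moved with these differences. At 6 months the 6 cortical projection neuron markers summed to 3.98 to 87 CPM in WT + IPTG (median 31.5) and 4.79 to 73.7 CPM in LacQ140 (median 10), and 1 of 6, *Neurod6*, was called lower in LacQ140. The 3 thalamus markers summed to 23.4 to 177 CPM (median 50.2) and 20.4 to 44.8 CPM (median 22.7), and all 3 were called lower. Of these, *Tcf7l2* was also called lower in LacQ140 cortex at 6 months (-0.47, adjusted p = 0.0029), where *Prkcd* (0.01) and *Lef1* (-0.18) were not. Within groups, *Cck* varied with the cortical markers (Pearson r = 0.891 over 107 striatal libraries) and *Pvalb* with the thalamus markers (r = 0.619). Both are descriptions over libraries of both ages, and differences in dissection between them were not tested. Within the WT + IPTG group at 6 months, *Cck* was 16.3 to 29.1 CPM in the 6 libraries high in these markers and 4.88 to 11.7 CPM in the other 4. With the summed cortical, thalamic and hypothalamic markers as covariates, the m*Htt* effect at 6 months was -0.05 for *Cck* (adjusted p = 1) and -0.22 for *Pvalb* (adjusted p = 0.64).

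**Figure D4:**
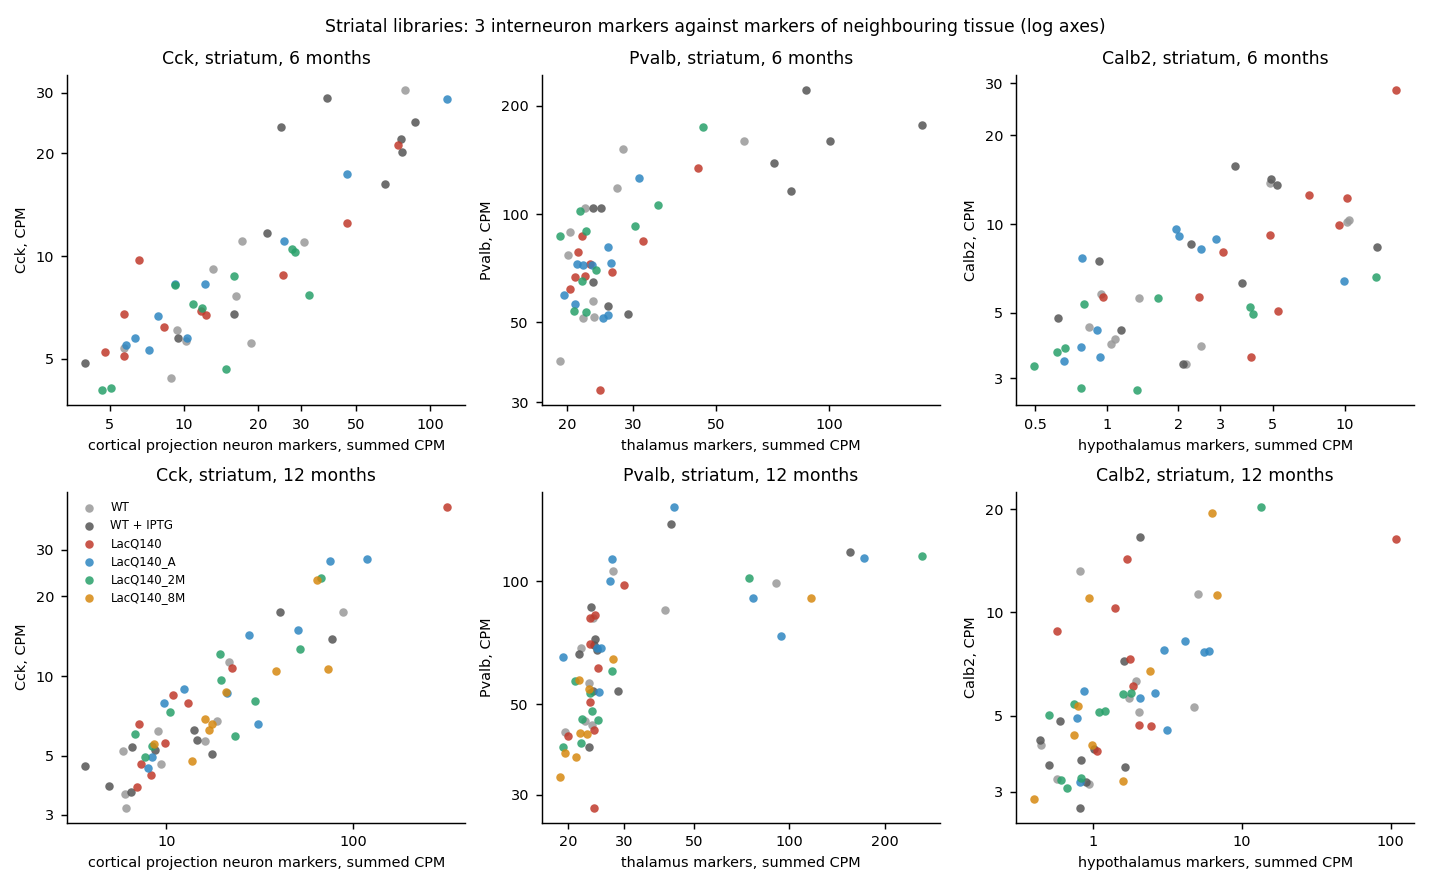
*Cck* against summed cortical projection neuron markers, *Pvalb* against summed thalamus markers and *Calb2* against summed hypothalamus markers in each striatal library at 6 (top) and 12 months (bottom), in CPM on log axes and colored by group. Libraries with more cortical marker reads held more *Cck* (r = 0.891 within groups), including the LacQ140 mouse with 43.6 CPM at 12 months.

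*Calb2*, which encodes calretinin, and *Th*, which encodes the rate-limiting enzyme of dopamine synthesis, were not called for the m*Htt* effect. *Calb2* at 12 months ranged from 2.7 to 16.6 CPM in WT + IPTG (median 3.85) and from 3.94 to 16.4 CPM in LacQ140 (median 7.3), and none of the 9 LacQ140 mice was below the WT + IPTG median. The log2 difference was 0.69 (SE 0.319, adjusted p = 0.17), and it was 1.06 (adjusted p = 0.011) without the WT + IPTG mouse M5. Without the libraries high in cortical or thalamic markers it was 0.74 (adjusted p = 0.089). At this age 2 of 4 hypothalamus markers (*Pmch* and *Hcrt*) and 2 of 6 cortical markers were called higher in LacQ140. The hypothalamus markers summed to 109 CPM in LacQ140 M1 and to 0.579 to 2.45 CPM in the other 8 mice, and M1 was also the highest of them for *Calb2*. Without M1 the *Calb2* difference was 0.52 (adjusted p = 0.39), and with the marker sums as covariates the differences were 0.37 for *Calb2* (adjusted p = 0.45) and 0.27 for *Cck* (adjusted p = 0.26). *Th* had medians of 10 and 8.2 CPM at 12 months and a difference of -0.16 (adjusted p = 0.28). At 6 months the differences were 0.21 for *Calb2* and 0.02 for *Th*.

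Other genes of the interneuron classes were mostly not called. Of 43 further genes used to mark these classes or the GABAergic lineage, 3 rose and 1 fell in striatum at 6 months, and 1 rose and 3 fell at 12 months, with medians of 0.01 and -0.07. These 4 of 43 at each age stood near the share of all genes called, 7.93% and 9.44%, so the counts do not set these classes apart. None of the 6 further genes of the somatostatin class was called at either age. Among 6 parvalbumin class genes, *Kcnc2*, a fast-gating potassium channel, fell by 0.58 at 6 months (adjusted p = 0.005), and *Syt2*, a synaptotagmin, and *Pthlh*, a peptide hormone, fell by 0.61 (adjusted p = 2.6e-08) and 0.57 (adjusted p = 4.7e-06) at 12 months. *Pthlh* went from a median of 8.32 CPM to 5.07 CPM, while *Pvalb* itself was not called at that age. *Syt2* ranged from 101 to 136 CPM in WT + IPTG and from 62 to 96.9 CPM in LacQ140. Its ranges did not overlap, as was so for 2.07% of all genes. Without the libraries high in cortical or thalamic markers the *Kcnc2* difference was 0.04 (adjusted p = 1), beside the 3 thalamus markers called lower in the same contrast, and *Syt2* (-0.57) and *Pthlh* (-0.59) were still called.

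Among 7 cholinergic class genes, *Isl1*, a transcription factor of cholinergic neurons also present in other striatal cells, rose by 0.29 at 6 months (adjusted p = 0.00089), and none was called at 12 months. Among the lineage genes *Dlx5* and *Dlx2*, homeobox factors of the ventral forebrain, rose by 0.43 (adjusted p = 0.00039) and 0.39 (adjusted p = 0.017) at 6 months. In the calretinin, VIP and CCK class, *Tac2*, a tachykinin, rose by 1.69 (adjusted p = 0.0018) and *Reln*, an extracellular matrix protein, fell by 0.31 (adjusted p = 0.004) at 12 months. Without the libraries high in cortical or thalamic markers none of *Isl1*, *Dlx5* and *Dlx2* was called (0.29, 0.30 and 0.40, adjusted p = 0.055, 0.19 and 0.22), and *Tac2* and *Reln* were. With the marker sums as covariates, *Isl1* was called and *Dlx5*, *Dlx2*, *Tac2* (1.07, adjusted p = 0.063) and *Reln* (-0.24, under the bound) were not. In cortex none of the 43 was called at either age.

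m*Htt* lowering was compared with continuous expression (LacQ140_A, LacQ140_2M and LacQ140_8M against LacQ140). These contrasts share the LacQ140 libraries with the m*Htt* effect, so values are given side by side only. *Nos1* in striatum at 12 months had medians of 62, 71.5 and 80.7 CPM in LacQ140_A, LacQ140_2M and LacQ140_8M, beside 68.8 CPM in LacQ140, 89.1 CPM in WT + IPTG and 74.2 CPM in WT. The log2 differences from LacQ140 were -0.13, 0.05 and 0.17, none called. For *Chat* they were -0.18, 0.05 and 0.02, and for *Slc18a3* -0.05, 0.05 and 0.01. No schedule gave a called rise in any gene that was lower at 12 months, where 0.910%, 0.608% and 0.00565% of all genes were called. LacQ140_A held 5 of 10 libraries high in cortical or thalamic markers and LacQ140 1 of 9, and *Chat* went against cortical markers within groups (r = -0.431). Median *Htt* was 112 CPM in LacQ140_8M and 113 CPM in LacQ140, so lowering was not seen in these counts. *Sst* differed from LacQ140 by 0.07, -0.08 and -0.11 and *Npy* by 0.06, -0.04 and -0.11, none called.

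Among the 10 spiny markers in striatum, 9 and 8 rose in LacQ140_A and LacQ140_2M at 6 months, and 5, 5 and 1 rose in LacQ140_A, LacQ140_2M and LacQ140_8M at 12 months. Of the interneuron markers 0 were called in LacQ140_A at either age, where 1.88% of genes were called at 6 months and 0.910% at 12 months. In LacQ140_8M 0 were called where 0.00565% of genes were. At an unadjusted p under 0.05, *Nos1*, *Chat*, *Slc5a7* and *Calb2* passed in LacQ140_A at 6 months and *Pvalb* and *Chat* at 12 months, and none passed in LacQ140_8M. The markers called under DESeq2 in these contrasts also numbered 0. In LacQ140_2M 1 marker was called at 6 months, *Calb2*, where 1.26% of genes were, and 0 at 12 months, where 0.608% were.

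*Calb2* at 6 months ranged from 3.54 to 28.6 CPM in LacQ140 (median 8.63) and from 2.73 to 6.62 CPM in LacQ140_2M (median 4.39). The ranges overlapped, and the LacQ140 mouse M2 was far above the rest at 28.6 CPM. *Calb2* fell by 1.19 on the log2 scale (SE 0.277, adjusted p = 0.01), and the medians of the controls were 5.04 CPM in WT and 7.91 CPM in WT + IPTG, both above that of LacQ140_2M. The 4 hypothalamus markers, of which *Oxt* was at 0 in some LacQ140 mice, summed to 0.968 to 16.5 CPM in LacQ140 (median 5.05) and 0.495 to 13.5 CPM in LacQ140_2M (median 1.07). *Calb2* went with these markers within groups (r = 0.609 over 107 libraries). The difference was -1.27 (adjusted p = 0.0087) without the libraries high in cortical or thalamic markers and -1.19 (adjusted p = 0.011) with DESeq2, and the call was lost with the marker sums as covariates (-0.55, adjusted p = 0.44).

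**Figure D5:**
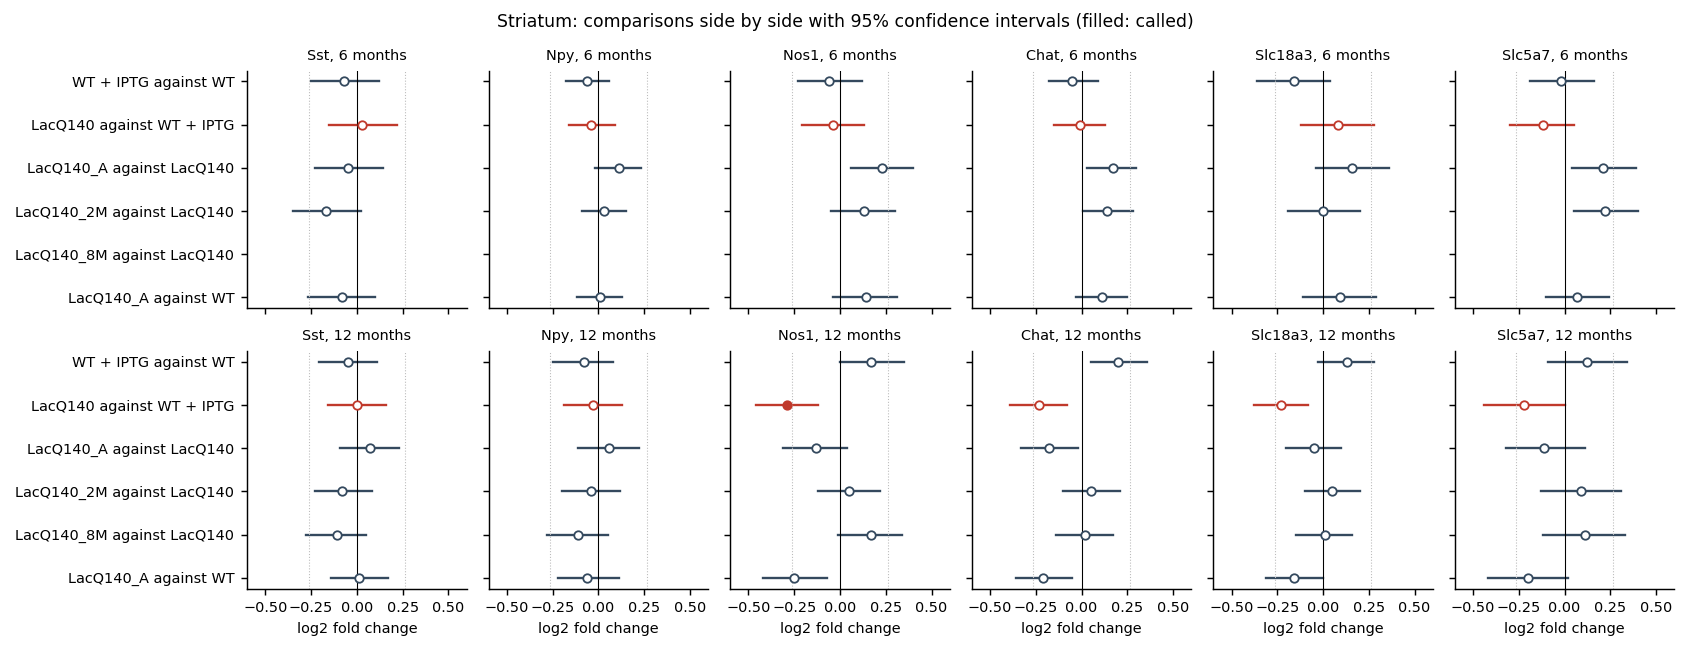
Log2 fold changes with 95% confidence intervals in striatum at 6 (top) and 12 months (bottom) for *Sst*, *Npy*, *Nos1*, *Chat*, *Slc18a3* and *Slc5a7* in each comparison; the m*Htt* effect is in red, filled points were called, and dotted lines mark a 1.2-fold change. The only filled point is *Nos1* at 12 months (-0.29), and the comparisons that share the LacQ140 or WT libraries are not independent of each other.

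LacQ140_A against WT, both without IPTG, shares no library with the m*Htt* effect. At 12 months the log2 differences were -0.25 for *Nos1* (adjusted p = 0.092), -0.21 for *Chat* (adjusted p = 0.13), -0.20 for *Slc5a7* (adjusted p = 0.44) and -0.16 for *Slc18a3* (adjusted p = 0.33). None of these 4 was called. LacQ140_A held 5 of 10 libraries high in cortical or thalamic markers and WT held 2 of 9, with median cortical marker sums of 24.4 and 9.39 CPM. Within groups over 107 striatal libraries, r with the cortical markers was -0.431 for *Chat*, -0.432 for *Slc5a7*, -0.413 for *Slc18a3* and -0.121 for *Nos1*, and the lowest *Chat* value, 18.3 CPM, was in LacQ140_A F1, whose cortical marker sum was 118 CPM. Without the libraries high in these markers the differences were -0.07 for *Nos1*, -0.10 for *Chat*, -0.15 for *Slc5a7* and -0.09 for *Slc18a3*. *Sst* and *Npy* differed by 0.01 and -0.06. No marker was called at either age, where 0.910% of genes were at 6 months and 3.15% at 12 months, while 9 of 10 spiny markers fell at 12 months. At an unadjusted p under 0.05, 0 markers passed at 6 months and 4 at 12 months (*Nos1*, *Chat*, *Slc18a3* and *Cck*), and DESeq2 called 0 at each age.

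IPTG alone (WT + IPTG against WT) gave no called marker in either tissue at either age, where 0.584% and 0.218% of genes were called in striatum and 0.609% and 0% in cortex at 6 and 12 months. The largest difference in striatum was for *Cck* at 6 months, 0.76 (unadjusted p = 0.014, adjusted p = 0.36), in a group whose libraries also held more cortical and thalamic marker reads, and it was -0.01 (adjusted p = 1) for *Cck* without the libraries high in them. *Chat* (0.20) and *Nos1* (0.17) at 12 months also passed the unadjusted threshold in striatum, 0 did in cortex, and DESeq2 called 0 throughout.

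The m*Htt* effect was then tested for a difference between ages, tissues and sexes. None of the 10 markers was called for a difference between ages in striatum, where 2.07% of genes were, or in cortex, where 0.00268% were. In striatum 4 passed an unadjusted p of 0.05, *Cck* (1.50, adjusted p = 0.098), *Slc18a3* (-0.32, adjusted p = 0.21), *Nos1* (-0.25, adjusted p = 0.38) and *Chat* (-0.23, adjusted p = 0.31), and 0 did in cortex, while 8 of 10 spiny markers were called in striatum. None was called for striatum against cortex at 6 or 12 months, where 0.653% and 2.53% of genes were, and 2 passed unadjusted at 6 months (*Cck* and *Pvalb*) and 1 at 12 months (*Nos1*, -0.52, adjusted p = 0.29). Within 1 sex, *Nos1* in striatum at 12 months fell by 0.48 in females (adjusted p = 0.0011) and differed by -0.12 in males (adjusted p = 0.64), where 7.99% and 7.67% of genes were called, but the difference between the sexes was itself not called (0.36, adjusted p = 0.41). *Slc18a3* fell by 0.32 in males at 12 months (adjusted p = 0.039) and *Cck* by 1.49 in males at 6 months (adjusted p = 0.041), where 3.06% of genes were called. Of these males, 4 of 5 WT + IPTG and 0 of 5 LacQ140 gave libraries high in cortical or thalamic markers. No marker was called in females at 6 months, where 6.07% were. The differences between the sexes were not called for *Slc18a3* or *Cck* (-0.19, adjusted p = 0.8, and -1.17, adjusted p = 1). In cortex no marker was called within males (0.0834% and 0.00870% of genes at 6 and 12 months) or females (0.114% and 0.0928%). No marker was called for such a difference in any of the 4 sets, where at most 0.00565% of genes were, and 3 passed unadjusted, *Nos1* and *Cck* in striatum and *Slc5a7* in cortex, all at 12 months.

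In cortex *Nos1* and *Pvalb* differed between the tables of the 2 ages. *Nos1* ranged from 19 to 46.7 CPM over the 50 cortical libraries at 6 months and from 1.58 to 8.1 CPM over the 60 at 12 months, without overlap. *Pvalb* went the other way, from 69.2 to 138 CPM and from 149 to 380 CPM. The change of counts with transcript length differed too: its slope had a median of 0.42 in cortex at 6 months and -0.07 at 12 months, and 0.42 and 0.51 in striatum. The longest transcripts of *Nos1* and *Pvalb* are 10123 and 977 bases. The part of the length slope in these age differences was not tested.

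Within cortex the m*Htt* effect was narrowly bounded at 12 months for *Sst*, *Npy* and *Cck*. *Sst* had medians of 384 CPM in WT + IPTG and 397 CPM in LacQ140 at 12 months, with a confidence interval of -8.26% to 12.7%. *Npy* had medians of 94 and 101 CPM, with an interval of -10.6% to 11.9%. *Cck* had medians of 433 and 421 CPM, with an interval of -12.1% to 4.7%. All 3 intervals lay within 20% of no change. At 6 months those of *Npy* (-9.78% to 10.9%), *Cck* (-10.7% to 15.8%), *Pvalb* (-12.9% to 13%) and *Calb2* (-18.1% to 17%) did too, and those of *Sst* (-8.02% to 25.3%) and *Nos1* (-25.3% to 2.7%) did not. At 12 months *Pvalb* had medians of 277.5 and 227.5 CPM and a log2 difference of -0.24 that was not called (unadjusted p = 0.029, adjusted p = 0.52). For the 3 cholinergic genes in cortex, the intervals at 12 months ran past 40% in each direction, so differences of that size lay within them.

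Lowering of m*Htt* gave no called marker in cortex. LacQ140_A had 0 called at 6 and 12 months, where 0.00834% and 0.0435% of genes were, LacQ140_2M had 0, where 0% and 0.0841% were, and LacQ140_8M had 0, where 0% were. At an unadjusted p under 0.05, 1 marker passed in LacQ140_A at 6 months (*Nos1*, 0.27) and 3 at 12 months (*Pvalb*, *Cck* and *Chat*). In LacQ140_2M 3 passed at 6 months (*Slc5a7*, *Th* and *Calb2*) and 0 at 12 months, and 0 passed in LacQ140_8M. LacQ140_A against WT had 0 called, where 0.425% and 0.0174% of genes were, and 0 passed unadjusted. DESeq2 called 0 in each.

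Markers of the same class did not always vary together from mouse to mouse. Over 107 striatal libraries, as deviations of log2 CPM from the group mean, *Sst* went with *Npy* (r = 0.771) but not with *Nos1* (r = -0.396). *Chat* went with *Slc5a7* (r = 0.67) and as closely with *Nos1* (r = 0.67), and less with *Slc18a3* (r = 0.478). In cortex *Sst* went with *Cck* (r = 0.829 over 110 libraries). These are descriptions over libraries of both ages, which differed in length slope (0.27 to 0.60 in striatum, -0.30 to 0.65 in cortex) and may differ in dissection.

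The genes whose striatal pattern was most like that of a marker were, for *Sst*, *Ap2s1* (r = 0.923) and *Edf1* (r = 0.89), and for *Nos1*, *Mtor* (r = 0.871) and *Srgap3* (r = 0.859). For *Npy* they were *Rps26* (r = 0.847) and *Spag7* (r = 0.835). None of these 6 is on the interneuron lists. For *Chat* they were *Acly* (r = 0.846) and *Tacr1* (r = 0.778), the latter the substance P receptor found on cholinergic interneurons. *Slc18a3* was like *Ache* (r = 0.759), acetylcholinesterase. *Pvalb* was most like *Ramp3* (r = 0.924) and *Kcnip1* (r = 0.915).

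*Cck* was most like *Olfm1* (r = 0.9) and *Slc17a7* (r = 0.895), the glutamate transporter of cortical projection neurons and a member of the cortical marker list. *Calb2* was most like *Resp18* (r = 0.83) and *AW551984* (r = 0.825), *Slc5a7* like *Atp8a1* (r = 0.84) and *Ddx6* (r = 0.822), and *Th* like *Frs3* (r = 0.547) and *Stub1* (r = 0.54). In cortex the nearest genes were *Mif* and *Dohh* for *Sst* (r = 0.872 and 0.868), *Tln2* for *Nos1* (r = 0.87), *Ppia* for *Pvalb* (r = 0.904) and *Edf1* for *Cck* (r = 0.87). *Chat* and *Slc18a3* averaged under 1 CPM in cortex and were not compared.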

How the data were processed

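RNA from striatum and cortex was sequenced as paired-end reads, and the authors deposited 2 tables, 1 per age, of estimated counts per gene with 1 column per library. The submitters' processing notes name the genome build GRCm38. The aligner, the quantification program and the strand setting are not given in the sources used here. Gene symbols and positions came from GENCODE release vM21, which matched 54495 of 54532 identifiers. The estimated (expected) counts, of which 25.45% of nonzero values were not whole, were rounded. Genes with at least 1 count were fitted with edgeR (version 4.0.16, quasi-likelihood test, TMM scaling, R 4.3.3), all groups of a tissue and age together, and p-values were adjusted by Benjamini-Hochberg over all genes tested. A call needed an adjusted p under 0.05 together with a ratio of at least 1.2-fold, up or down. Standard errors and 95% confidence intervals came from the same fits. Differences between ages, tissues and sexes were interaction contrasts. Levels per kilobase used the longest transcript. The model fits were tested on simulated data.

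Alternatives were DESeq2 (version 1.42.0), other scalings, filters and covariates, pooled controls, a replicate block and leaving out each library. Leaving out libraries high in cortical or thalamic markers, and the marker sums as covariates, were added after seeing the data. The threshold and bound follow the study's methods, which used DESeq2. All 10 members are named. Of the other interneuron genes, at most the 2 risen and 2 fallen with the largest fold per class and age are named, and per member the 2 genes most alike (at a mean of at least 1 CPM), of which 1 is not reported here. The members and lists were chosen with earlier results of these data known. Library totals were 37915509 to 68038785 at 6 months and 33292014 to 50478407 at 12 months. The replicate numbers did not clearly pair mice. Libraries of the same number correlated at 0.077 to 0.1 across groups, and 43.7% to 57.0% of such pairs were over 0.1. Libraries of other numbers and the same sex correlated at 0.102 to 0.141, except in cortex at 12 months. There they correlated at 0.056, against 0.091 for the same number. Over 963 pairs within groups, counts differed by at least 6.15 times the sampling variance (10 or more counts per gene).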

Additional observations from a re-analysis of the deposited data

Results flagged for a closer look

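Among 220 groups of mice (10 markers in 22 groups of a tissue and age), 23 had a mouse far from the others by Dixon's criterion, which chance meets in about 1 in 20 groups. *Cck* in striatum gave 6: 43.6 CPM in LacQ140 M2, 23.5 in LacQ140_2M F4 and 23.1 in LacQ140_8M F2 at 12 months, and 21.2 in LacQ140 F1, 28.9 in LacQ140_A F2 and 30.7 in WT M5 at 6 months, each the highest of its group. All 6 were libraries high in cortical or thalamic markers, with cortical marker sums of 318, 67.1 and 64.1 CPM at 12 months and 73.7, 117 and 78.7 CPM at 6 months, in the same order. *Calb2* in striatum gave 4 high mice: 28.6 CPM in LacQ140 M2 at 6 months, and 20.3 in LacQ140_2M F4, 19.5 in LacQ140_8M F2 and 16.6 in WT + IPTG M5 at 12 months. LacQ140_2M F4 and LacQ140_8M F2 at 12 months were thus high for both genes. *Calb2* in cortex was high in LacQ140_2M F3 at 6 months (32.4 CPM), and in LacQ140_2M M4 (20.9) and WT + IPTG M1 (18.8) at 12 months.

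*Pvalb* was high in striatum of LacQ140_2M F5 (175 CPM) and LacQ140_A M3 (126) and low in cortex of LacQ140 M5 (69.2), all at 6 months. In cortex at 6 months, LacQ140_A F3 was high for *Slc5a7* (3.85 CPM), *Slc18a3* (1.15) and *Th* (3.68), and LacQ140_2M F3 for *Th* (7.57). In striatum at 12 months, WT + IPTG M4 was the highest of its group for *Sst* (274 CPM) and the lowest for *Slc5a7* (29.6). *Chat* was high in cortex of LacQ140_8M M5 at 12 months (0.858 CPM). No test was made of what set these mice apart.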

How the results depend on the processing

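Most counts of called markers were 0 and had little room to change. In striatum at 6 months, the 2 markers called for the m*Htt* effect became 0 with DESeq2, with pooled WT controls, with the replicate block, without libraries high in cortical or thalamic markers, and with marker sums as covariates, and 1 with the length slope as a covariate. At 12 months the 1 called marker became 3 with no fold change bound and 0 with pooled WT controls, with the length slope or with marker sums as covariates. With the length slope *Nos1* differed by -0.25 (adjusted p = 0.0018), short of the 1.2-fold bound only, and under DESeq2 *Pvalb* and *Cck* at 6 months differed by -0.67 and -0.89 (adjusted p = 0.07 for each). The 1 call among the lowering contrasts, *Calb2* in LacQ140_2M at 6 months, also became 0 with marker sums as covariates. In cortex at 12 months, 1 marker (*Pvalb*, 0.35, adjusted p = 0.0022) was called in LacQ140_A against LacQ140 when only these groups were fitted, against 0 otherwise. Leaving out each library gave 0 to 2 called markers in striatum at 6 months and at 12 months, and 0 to 0 in cortex at each age. The log2 change of *Cck* at 6 months ran from -1.13 to -0.77 and lost its call in 12 of 20 such fits, that of *Pvalb* from -0.79 to -0.52 and in 10 of 20, and that of *Nos1* at 12 months from -0.35 to -0.26, under the 1.2-fold bound in 4 of 19 (without LacQ140 M1, F1 or F3 or WT + IPTG F2). The replicate block, which the numbers do not support as a pairing, gave -0.81 (adjusted p = 0.083) for *Cck* and -0.56 (adjusted p = 0.11) for *Pvalb* at 6 months and left the calls of *Nos1* (-0.30, adjusted p = 0.018) and *Calb2* (-1.16, adjusted p = 0.022). Blocking by mouse in the comparison of tissues, where the same animals gave both, changed no marker's call. Over 2300 alternatives for the 10 markers, most of them not called, 15 lost a call, 3 gained one, 98 changed the sign of a value not called and 0 that of a called one. *Cck* at 12 months, not called, ran from -0.12 to 0.86 when each library was left out. The causes of these changes were not tested. The cholinergic genes in cortex had few reads (a median of 11 for *Chat* at 12 months) and wide spread between mice, and age cannot be told apart from the table it was deposited in.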
